A study of Mus musculus with 12 samples.

Results

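The genes described here are 39 mouse genes of 2 linked stress programmes, the ATF4 programme of amino acid supply and the unfolded protein response of the endoplasmic reticulum (ER). They were chosen by name: a gene belongs if its symbol in the expression table is one of the 39, whatever its values. The list of names was itself drawn up with earlier results of these data known. All 39 were found among 54532 genes in the table, and all 39 were among the 15122 genes with enough reads to be tested. By role they comprise 10 regulators, 8 enzymes of amino acid and one-carbon metabolism, 6 amino acid transporters, 4 other genes linked to ATF4, 4 ER stress sensors and their effector, and 7 genes of ER folding and degradation.

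Poly(A) RNA was sequenced from C2C12 cells, a single immortal line of mouse myoblasts, in 4 groups of 3 libraries. No engineered allele is named for them, and they were harvested 48 h after transfection with 30 nM siRNA, which was a control sequence in siCONTROL, targeted KEAP1 in siKEAP1 or CCNF in siCCNF, and targeted both in siKEAP1/siCCNF. Whether this dose is a total or applies to each siRNA of the double depletion is not given in the sources used here, nor is which Ccnf siRNA the sequenced cells received. KEAP1 is the CUL3 adaptor that targets the antioxidant transcription factor NRF2, and CCNF, or cyclin F, is a CUL1 adaptor. The sequencing addressed which genes change when either adaptor or both are depleted in myoblasts, and the labels describe the libraries of a group as biological replicates without saying that each came from its own culture, so p-values measure the spread between these libraries.

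Proteins are folded in the ER lumen, and 3 sensors in its membrane, encoded by Ern1, Eif2ak3 and Atf6, respond when folding falls behind. The Eif2ak3 kinase (PERK) slows translation in general but favours that of Atf4, whose product switches on genes for the import and synthesis of amino acids, while Ern1 (IRE1) splices Xbp1 mRNA and ATF6 is cut to release a transcription factor, both of which raise chaperones. Atf4 translation also rises when amino acids run short or mitochondria are stressed, and NRF2 and ATF4 share several target genes. ATF4, XBP1 and ATF6 are controlled largely at the level of translation, splicing and cleavage, which gene counts do not measure.

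Library totals lay between 18464209 and 37743198 counts. Keap1 fell after siKEAP1 (log2 fold change -2.80, SE 0.08, adjusted p = 2.32e-10) and in siKEAP1/siCCNF (log2 fold change -1.86, SE 0.08, adjusted p = 4.46e-09), and Ccnf fell after siCCNF (log2 fold change -1.99, SE 0.08, adjusted p = 2.46e-09) and in siKEAP1/siCCNF (log2 fold change -1.73, SE 0.08, adjusted p = 4.95e-09), all by the quasi-likelihood test of edgeR with p-values adjusted after Benjamini and Hochberg. Ccnf was also lower after siKEAP1 (log2 fold change -0.45, SE 0.07, adjusted p = 0.000258 by the same test). One siCONTROL library, replicate 1, and one siKEAP1/siCCNF library, replicate 3, stood apart from their group: their deviations from the group mean correlated with log2 gene length (r = -0.305 and -0.276 over 15122 genes, a description), and the chi-square of their counts against group mates was 29.3 to 43.4 per degree of freedom, where other replicate pairs had 2.96 to 13.3. The summed level of 8 muscle differentiation markers was 61.6 to 146 CPM (counts scaled to the size of the library) in siCONTROL, 3.11 to 3.36 in siKEAP1, 18.2 to 27.5 in siCCNF and 6.53 to 8.17 in siKEAP1/siCCNF. Within siCONTROL, replicate 1 had 146 CPM, and replicates 2 and 3 had 63.0 and 61.6. For 7 myoblast markers the sum was 4921 to 5374, 3968 to 4152, 2976 to 3085 and 2894 to 3110 CPM. Such a sum follows its most abundant genes. The median log2 fold change of these 7 was -1.05 after siKEAP1, -1.44 after siCCNF and -1.40 after both. The summed level of 6 markers of other cells was 0.807 to 1.63 CPM in siCONTROL, 5.62 to 10.6 in siKEAP1, 1.82 to 3.38 in siCCNF and 2.18 to 3.69 in siKEAP1/siCCNF. Most of it was Cd68, a macrophage marker and the only 1 of the 6 with enough reads to be tested. Cd68 was higher in each depleted group (log2 fold changes 2.90, 1.25 and 1.55, edgeR). Ptprc, Pecam1 and Epcam had too few reads for a test, and Alb and Sox10 were at 0. The part of these shifts in the changes described here was not tested.

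Short motifs in the promoters show where the members differ in sequence. Of the 39 members, 33 had an entry in the RefSeq promoter table (GRCm38.p6), which covers 250 bases before to 50 bases after each transcription start, and Eif4ebp1, Cth, Slc7a5, Slc1a5, Atf6 and Manf had none. The C/EBP-ATF response element (CARE), searched as TGATGNAA on both strands, was found in the promoters of 8 members, namely Asns, Herpud1, Jdp2, Nupr1, Pycr1, Slc1a4, Trib3 and Vldlr, and in 4.51% of all 27025 genes in the table. The following windows of 30 bases are shown because 4 of these genes had changes of over 2-fold and Asns, a classic ATF4 target, passed no test. They are written 5′ to 3′ on the strand of the gene, with the fixed letters of the motif in capitals. Positions are counted from the RefSeq start, which need not be the outer end of the gene as counted. The windows of Nupr1, Jdp2 and Asns lie inside the bounds of the counted gene, and that of Slc1a4 crosses them.
Slc1a4 (chr11:20332699-20332728, minus strand, motif from -4 to 4 of the start): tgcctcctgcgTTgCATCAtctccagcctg
Pycr1 (chr11:120643833-120643862, minus strand, motif from -103 to -96 of the start): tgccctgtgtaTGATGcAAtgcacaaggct
Jdp2 (chr12:85599372-85599401, plus strand, motif from -33 to -26 of the start): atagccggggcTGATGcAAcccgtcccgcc
Nupr1 (chr7:126625562-126625591, minus strand, motif from -110 to -103 of the start): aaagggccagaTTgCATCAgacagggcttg
Asns (chr6:7693214-7693243, minus strand, motif from -23 to -16 of the start): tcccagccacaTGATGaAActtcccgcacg

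The ER stress element, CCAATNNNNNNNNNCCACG on either strand, was found in Calr, Creld2 and Pdia6 and in 0.137% of all genes, and the second ER stress element, ATTGGNCCACG, was found in Herpud1 and in 0.0444% of genes. The core of the unfolded protein response element, TGACGTG, was found in Jdp2 alone among the members and in 2.22% of genes. No motif overlapped another in a member's promoter. The 4 windows of the ER stress elements are shown because these genes went different ways after siCCNF, as described below. A match of letters is a description and not a measured binding site.
Calr (chr8:84847069-84847098, minus strand, motif from -162 to -144 of the start): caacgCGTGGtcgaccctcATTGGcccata
Creld2 (chr15:88819515-88819544, plus strand, motif from -126 to -108 of the start): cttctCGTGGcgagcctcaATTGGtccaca
Pdia6 (chr12:17266486-17266515, plus strand, motif from -98 to -80 of the start): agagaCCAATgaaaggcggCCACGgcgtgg
Herpud1 (chr8:94386368-94386397, plus strand, motif from -52 to -42 of the start): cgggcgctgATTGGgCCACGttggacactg

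The 39 genes did not move as a block. After siKEAP1, 17 members were lower and 6 higher (adjusted p under 0.05, edgeR), where 20.2% of all genes tested were lower and 20.4% higher. After siCCNF, 16 were lower and 9 higher, against 25.5% and 22.5% of all genes. In siKEAP1/siCCNF, 16 were lower and 7 higher than in siCONTROL, against 23.6% and 20.6% of all genes. The 3 comparisons share the siCONTROL libraries, and in bulk RNA a lower level can mean fewer cells that express a gene or less RNA per cell, which cannot be told apart.

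Most changes were small. Beyond 2-fold, siKEAP1 lowered 3 members (Jdp2, Pycr1 and Stc2) and raised 1 (Slc6a9), where 3.88% of all genes were lower and 7.59% higher by this rule. In siCCNF, 2 members were lower (Slc1a4 and Slc1a5) and 1 higher (Nupr1) by more than 2-fold, against 6.76% and 4.61% of all genes. Only Slc1a4 passed 2-fold in siKEAP1/siCCNF, as a decrease, and no member did as an increase, against 5.54% and 4.73%. The median log2 fold change of the 39 members was -0.11 after siKEAP1, 0.00 after siCCNF and -0.14 after both, and that of all genes tested was -0.01, 0.01 and 0.01.

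The 3 comparisons with siCONTROL share its libraries, so the values of each are given side by side below. In none of the 3 was a call made for 6 members (Trib3, Asns, Psph, Vldlr, Atf6 and Sdf2l1). With both libraries that stood apart left out, all 113 calls that members had in the 6 comparisons remained and 36 were gained, which included 4 more rises after siKEAP1 (to 10 members, where 23.6% of all genes tested then rose).

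**Figure D1:**
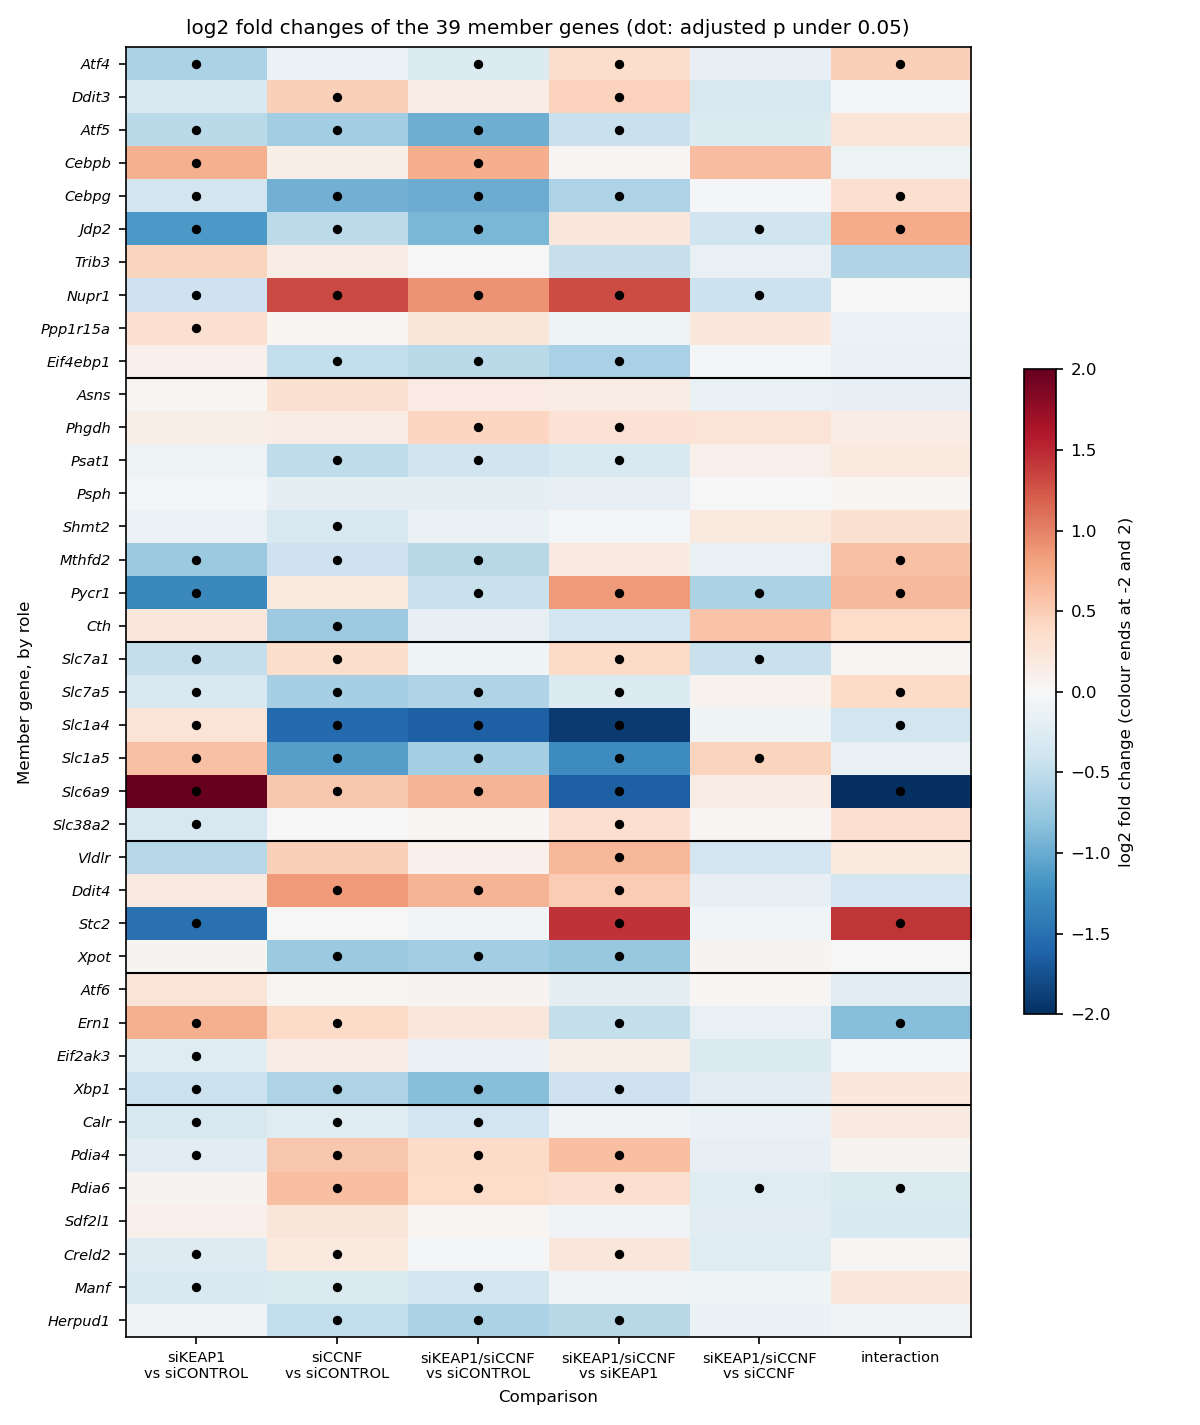
Heat map of the log2 fold change of each of the 39 members (vertical axis, grouped by role with lines between groups) in 5 pairwise comparisons and the interaction (horizontal axis). Colour gives the size and direction, and a dot marks an adjusted p under 0.05. Among the 3 comparisons with siCONTROL, Slc6a9 in siKEAP1 and Slc1a4 in both CCNF-depleted groups have the strongest colours, and the comparison of siKEAP1/siCCNF with siCCNF has 6 dots.

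Per length of transcript, the members spanned a wide range of levels. By the deposited FPKM (fragments per kilobase of transcript, scaled to depth), siCONTROL cells had most of Calr (607 ± 32.3, SD, n = 3), the calcium-binding chaperone calreticulin, then Pdia6 (141 ± 6.73) and Atf4 (104 ± 16.6). Lowest were Slc6a9 (1.47 ± 0.249), Vldlr (1.02 ± 0.396) and Stc2 (0.367 ± 0.0492). Of the 38 pairs of neighbours in this order, only 10 had siCONTROL ranges that did not overlap, among them Calr against Pdia6, Pdia6 against Atf4, and Vldlr against Stc2. From Pdia4 (85.0 ± 4.34) down to Creld2 (56.4 ± 1.47), 6 genes followed each other without a gap between their ranges. The folding genes and the mRNAs of the regulators Atf4, Cebpb and Jdp2 were thus in the upper part of the order, and the transporters Slc7a1, Slc1a5 and Slc6a9 in the lower part.

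Among the 10 regulators, 5 were lower and 2 higher after siKEAP1, where 20.2% and 20.4% of all genes tested were. After siCCNF, 4 were lower and 2 higher, against 25.5% and 22.5% of all genes. In siKEAP1/siCCNF, 5 were lower and 2 higher, against 23.6% and 20.6%. Atf4, the transcription factor that gives the programme its name (chr15:80255184-80257541, plus strand, GRCm38), was at 293, 230 and 221 CPM in siCONTROL, 164, 158 and 160 in siKEAP1, 223, 235 and 230 in siCCNF, and 197, 195 and 225 in siKEAP1/siCCNF. The siKEAP1 libraries lay below all others, and the siCCNF libraries lay within the siCONTROL range. Atf4 fell by 1.54-fold after siKEAP1 (log2 fold change -0.63, SE 0.10, adjusted p = 0.000158, edgeR), whereas siCCNF gave log2 fold change -0.11, SE 0.09, adjusted p = 0.349 (edgeR). In siKEAP1/siCCNF the decrease was smaller (log2 fold change -0.27, SE 0.09, adjusted p = 0.034, edgeR), and it missed the threshold without siCONTROL replicate 1 (log2 fold change -0.14) and without siKEAP1/siCCNF replicate 1 or 2 (-0.24 each).

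Cebpg, whose product pairs with ATF4 on DNA (chr7:35046422-35056573, minus strand), was at 53.1, 48.3 and 47.4 CPM in siCONTROL, 40.04, 37.7 and 37.3 in siKEAP1, 25.4, 26.01 and 25.4 in siCCNF, and 22.8, 26.03 and 25.8 in siKEAP1/siCCNF. Both groups with siCCNF lay below siKEAP1, which in turn lay below siCONTROL. The decrease was 1.94-fold after siCCNF (log2 fold change -0.95, SE 0.07, adjusted p = 3.50e-07, edgeR) and 1.29-fold after siKEAP1 (log2 fold change -0.37, SE 0.07, adjusted p = 0.00116, edgeR). Jdp2, which encodes an AP-1 family repressor (chr12:85599027-85639878, plus strand) and carries the CARE letters shown above, was at 157, 136 and 131 CPM in siCONTROL, 69.9, 62.1 and 60.3 in siKEAP1, 103, 98.9 and 93.8 in siCCNF, and 72.2, 70.1 and 82.9 in siKEAP1/siCCNF. No depleted library reached the siCONTROL range, and siKEAP1 alone gave the lowest values. Jdp2 fell by 2.21-fold after siKEAP1 (log2 fold change -1.14, SE 0.09, adjusted p = 5.06e-07, edgeR), by 1.44-fold after siCCNF (log2 fold change -0.52, SE 0.09, adjusted p = 0.000326, edgeR) and by 1.89-fold after both (log2 fold change -0.91, SE 0.09, adjusted p = 3.49e-06, edgeR).

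Nupr1, a small chromatin-associated stress protein (chr7:126623249-126630861, minus strand), had the largest rise among the regulators after siCCNF. It was at 24.2, 20.3 and 21.2 CPM in siCONTROL, 17.2, 14.1 and 18.2 in siKEAP1, 60.4, 50.2 and 53.6 in siCCNF, and 39.1, 37.1 and 46.4 in siKEAP1/siCCNF. Both groups with siCCNF lay above both groups without it, and siKEAP1 lay below siCONTROL. Nupr1 rose by 2.50-fold after siCCNF (log2 fold change 1.32, SE 0.12, adjusted p = 1.24e-06, edgeR) and by 1.86-fold in siKEAP1/siCCNF (log2 fold change 0.89, SE 0.12, adjusted p = 4.32e-05, edgeR). After siKEAP1 it fell (log2 fold change -0.41, SE 0.12, adjusted p = 0.0154, edgeR), a call lost without siKEAP1 replicate 2 (log2 fold change -0.31).

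Ddit3 (chr10:127290774-127296288, plus strand) encodes CHOP, the factor linked to cell death under lasting ER stress, and overlaps Mars on the opposite strand, so reads cannot be assigned with certainty where the counting is not known to use strand. Its libraries read 17.1, 13.7 and 12.9 CPM in siCONTROL, 11.8, 11.6 and 11.97 in siKEAP1, 19.3, 21.2 and 20.4 in siCCNF, and 14.2, 15.5 and 19.02 in siKEAP1/siCCNF. The siCCNF libraries were above all libraries of siCONTROL and siKEAP1, and siKEAP1/siCCNF overlapped siCONTROL. A rise of 1.39-fold after siCCNF passed the test (log2 fold change 0.48, SE 0.12, adjusted p = 0.00579, edgeR), and siKEAP1 gave log2 fold change -0.31, SE 0.13, adjusted p = 0.0707 (edgeR), which passed without siCONTROL replicate 3 (-0.40) and without siKEAP1/siCCNF replicate 3 (-0.31).

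The other regulators were measured as group means. Atf5, a paralog of Atf4 that overlaps Nup62, went from 51.3 ± 11.2 CPM in siCONTROL (SD, n = 3) to 35.5 ± 1.85 in siKEAP1, 31.7 ± 1.96 in siCCNF and 26.2 ± 1.99 in siKEAP1/siCCNF and was lower in all 3 depleted groups (log2 fold changes -0.53, -0.70 and -0.97). Cebpb, a further partner of ATF4 that overlaps Tmem189 on the opposite strand, went from 93.3 ± 23.8 CPM in siCONTROL (SD, n = 3) to 153 ± 13.8 in siKEAP1, 101 ± 8.41 in siCCNF and 155 ± 42.4 in siKEAP1/siCCNF and was higher after siKEAP1 and after both siRNAs (0.71 and 0.73). Eif4ebp1, a brake on cap-dependent translation, fell after siCCNF (-0.50) and after both (-0.54). Ppp1r15a, whose product GADD34 reverses the translational block, rose after siKEAP1 alone (0.33), which no longer passed without siCONTROL replicate 2 (0.31) or 3 (0.29) or without siKEAP1 replicate 3 (0.24). Trib3, a pseudokinase that restrains ATF4, was called in no comparison (0.45 after siKEAP1, adjusted p = 0.154, edgeR) but was called higher after siKEAP1 without siCONTROL replicate 1 (0.76).

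Of the 8 enzyme genes, 2 were lower and none higher after siKEAP1, where 20.2% and 20.4% of all genes tested were. After siCCNF, 4 were lower and none higher, against 25.5% and 22.5% of all genes. In siKEAP1/siCCNF, 3 were lower and 1 higher, against 23.6% and 20.6%. Pycr1, the mitochondrial enzyme of the last step of proline synthesis (chr11:120635712-120643769, minus strand), was at 20.4, 19.9 and 18.9 CPM in siCONTROL, 8.96, 7.37 and 7.89 in siKEAP1, 23.7, 21.4 and 22.5 in siCCNF, and 12.7, 13.8 and 17.1 in siKEAP1/siCCNF. The siKEAP1 libraries were the lowest, siKEAP1/siCCNF lay between them and siCONTROL, and siCCNF lay above siCONTROL in each library. Pycr1 fell by 2.45-fold after siKEAP1 (log2 fold change -1.29, SE 0.12, adjusted p = 1.83e-06, edgeR) and by 1.36-fold after both siRNAs (log2 fold change -0.44, SE 0.11, adjusted p = 0.006, edgeR), and siCCNF alone gave log2 fold change 0.19, SE 0.11, adjusted p = 0.167 (edgeR).

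Mthfd2, of mitochondrial one-carbon metabolism (chr6:83305691-83325908, minus strand), read 62.9, 51.98 and 46.9 CPM in siCONTROL, 32.9, 32.5 and 31.6 in siKEAP1, 39.3, 40.5 and 41.9 in siCCNF, and 36.1, 36.5 and 37.1 in siKEAP1/siCCNF. All depleted libraries were below all siCONTROL libraries, with siKEAP1 the lowest group. Its decreases were 1.67-fold after siKEAP1 (log2 fold change -0.74, SE 0.09, adjusted p = 2.74e-05, edgeR), 1.33-fold after siCCNF (log2 fold change -0.41, SE 0.09, adjusted p = 0.00204, edgeR) and 1.48-fold after both (log2 fold change -0.56, SE 0.09, adjusted p = 0.000227, edgeR).

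The serine pathway did not move as one. Psat1, the aminotransferase of serine synthesis, went from 157 ± 20.8 CPM in siCONTROL (SD, n = 3) to 146 ± 3.40 in siKEAP1, 111 ± 1.41 in siCCNF and 119 ± 8.95 in siKEAP1/siCCNF and was lower after siCCNF (-0.50) and after both (-0.40). Phgdh, the first enzyme of the same pathway, went from 117 ± 18.4 CPM in siCONTROL (SD, n = 3) to 128 ± 1.25 in siKEAP1, 131 ± 5.01 in siCCNF and 158 ± 17.4 in siKEAP1/siCCNF and was higher in siKEAP1/siCCNF alone (0.42), although without siCONTROL replicate 1 it was also called higher after siKEAP1 (0.25) and after siCCNF (0.29). Psph, the last enzyme, which overlaps Cct6a, was called in no comparison. Shmt2, which passes carbon from serine to folate in mitochondria, was lower after siCCNF (-0.32).

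Asns, asparagine synthetase, is given in full although it falls outside the rule for such genes, a choice made with its values in view. It was at 32.1, 18.8 and 19.8 CPM in siCONTROL, 20.9, 25.7 and 25.2 in siKEAP1, 26.1, 32.1 and 29.7 in siCCNF, and 22.3, 29.8 and 27.2 in siKEAP1/siCCNF. Its 3 siCONTROL libraries were split, with replicate 1 the highest of them, and their range covered all values of the other groups. No comparison passed the test (0.02 after siKEAP1, 0.31 after siCCNF and 0.16 after both), but without siCONTROL replicate 1 it was called higher after siCCNF (0.60) and after both (0.45). Cth, which makes cysteine from cystathionine, fell after siCCNF (-0.73), which no longer passed without siCONTROL replicate 1 (-0.52) or siCCNF replicate 3 (-0.59).

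After siKEAP1 each of the 6 transporter genes was called, 3 higher and 3 lower, where 20.4% of all genes tested were higher and 20.2% lower. Slc6a9, the glycine transporter GLYT1 (chr4:117834506-117875198, plus strand), read 7.26, 6.57 and 9.10 CPM in siCONTROL, 36.1, 41.4 and 35.96 in siKEAP1, 11.03, 11.4 and 10.9 in siCCNF, and 13.1, 12.9 and 10.7 in siKEAP1/siCCNF. Every siKEAP1 library was far above every other library, and both groups with siCCNF lay slightly above siCONTROL. Slc6a9 rose by 4.94-fold after siKEAP1 (log2 fold change 2.30, SE 0.12, adjusted p = 1.59e-08, edgeR) but by 1.45-fold after siCCNF (log2 fold change 0.54, SE 0.12, adjusted p = 0.00312, edgeR) and 1.60-fold after both (log2 fold change 0.68, SE 0.13, adjusted p = 0.000667, edgeR). It overlaps B4galt2 on the opposite strand, and their reads may not be separable.

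Slc1a4, the neutral amino acid transporter ASCT1 (chr11:20302180-20332713, minus strand), has the CARE letters shown above across its start and went the other way after siCCNF. Its level was 108, 103 and 121 CPM in siCONTROL, 137, 133 and 132 in siKEAP1, 41.03, 35.3 and 36.98 in siCCNF, and 35.4, 34.5 and 36.9 in siKEAP1/siCCNF. Both groups with siCCNF overlapped each other and were far below both groups without it, and siKEAP1 was above siCONTROL. The decrease was 2.93-fold after siCCNF (log2 fold change -1.55, SE 0.08, adjusted p = 1.01e-08, edgeR) and 3.11-fold after both (log2 fold change -1.64, SE 0.08, adjusted p = 8.69e-09, edgeR). The rise after siKEAP1 was small (log2 fold change 0.27, SE 0.07, adjusted p = 0.00977, edgeR) and was lost without siCONTROL replicate 2 (0.22).

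Its relative Slc1a5, the glutamine transporter ASCT2 (chr7:16781340-16798274, plus strand), also rose after siKEAP1 and fell with siCCNF, with 20.9, 16.98 and 17.00 CPM in siCONTROL, 25.9, 28.7 and 28.1 in siKEAP1, 8.13, 9.14 and 8.27 in siCCNF, and 10.7, 11.8 and 11.99 in siKEAP1/siCCNF. None of the 4 groups overlapped: siKEAP1 was highest, then siCONTROL, siKEAP1/siCCNF and siCCNF. Slc1a5 rose by 1.51-fold after siKEAP1 (log2 fold change 0.59, SE 0.10, adjusted p = 0.000355, edgeR), fell by 2.16-fold after siCCNF (log2 fold change -1.11, SE 0.10, adjusted p = 1.83e-06, edgeR) and fell by 1.59-fold after both (log2 fold change -0.67, SE 0.10, adjusted p = 0.000148, edgeR).

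Slc7a5, the large neutral amino acid transporter LAT1 (chr8:121881150-121907694, minus strand), was at 92.1, 75.8 and 74.5 CPM in siCONTROL, 66.8, 62.3 and 65.2 in siKEAP1, 49.9, 55.1 and 47.3 in siCCNF, and 51.1, 55.6 and 53.2 in siKEAP1/siCCNF. Each depleted group lay below siCONTROL, and the groups with siCCNF lay below siKEAP1. It fell by 1.59-fold after siCCNF (log2 fold change -0.67, SE 0.09, adjusted p = 3.70e-05, edgeR), by 1.52-fold after both (log2 fold change -0.60, SE 0.09, adjusted p = 0.000107, edgeR) and by 1.25-fold after siKEAP1 (log2 fold change -0.32, SE 0.09, adjusted p = 0.0103, edgeR). Slc7a1, which imports arginine and lysine, was lower after siKEAP1 (-0.47) and higher after siCCNF (0.35), where the second call was lost without siCONTROL replicate 1 (0.27) or 3 (0.35) or siCCNF replicate 2 (0.31) or 3 (0.36). Slc38a2, which imports small neutral amino acids, was lower after siKEAP1 alone (-0.32), and this was lost without siCONTROL replicate 2 (-0.28) or 3 (-0.26) or siKEAP1 replicate 1 (-0.32) or 2 (-0.31).

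Of the 4 other genes linked to ATF4, 1 was lower after siKEAP1, as were 20.2% of all genes tested. After siCCNF, 1 was lower and 1 higher, against 25.5% and 22.5% of all genes. The same counts were found after both, against 23.6% and 20.6%. Stc2, a secreted glycoprotein (chr11:31357307-31370074, minus strand), was the lowest of all members and read 1.79, 1.74 and 2.22 CPM in siCONTROL, 0.464, 0.810 and 0.746 in siKEAP1, 1.40, 1.94 and 2.42 in siCCNF, and 1.59, 1.85 and 2.11 in siKEAP1/siCCNF. The siKEAP1 libraries lay below all others, and the other 3 groups overlapped. Stc2 fell by 2.81-fold after siKEAP1 (log2 fold change -1.49, SE 0.29, adjusted p = 0.00116, edgeR), with log2 fold change 0.00, SE 0.25, adjusted p = 0.993 (edgeR) after siCCNF. Ddit4, which encodes the mTORC1 inhibitor REDD1, went from 118 ± 29.9 CPM in siCONTROL (SD, n = 3) to 133 ± 13.2 in siKEAP1, 212 ± 16.4 in siCCNF and 189 ± 19.1 in siKEAP1/siCCNF and was higher after siCCNF (0.85) and after both (0.69), and without siCONTROL replicate 1 it was also called higher after siKEAP1 (0.39). Xpot, which exports tRNA from the nucleus, went from 115 ± 11.5 CPM in siCONTROL (SD, n = 3) to 120 ± 4.54 in siKEAP1, 68.6 ± 5.17 in siCCNF and 71.05 ± 2.97 in siKEAP1/siCCNF and was lower after siCCNF (-0.75) and after both (-0.70). Vldlr, a lipoprotein receptor, passed no test against siCONTROL, but was called lower after siKEAP1 without siCONTROL replicate 1 (-0.83) and higher after siCCNF without siCONTROL replicate 3 (0.82).

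**Figure D2:**
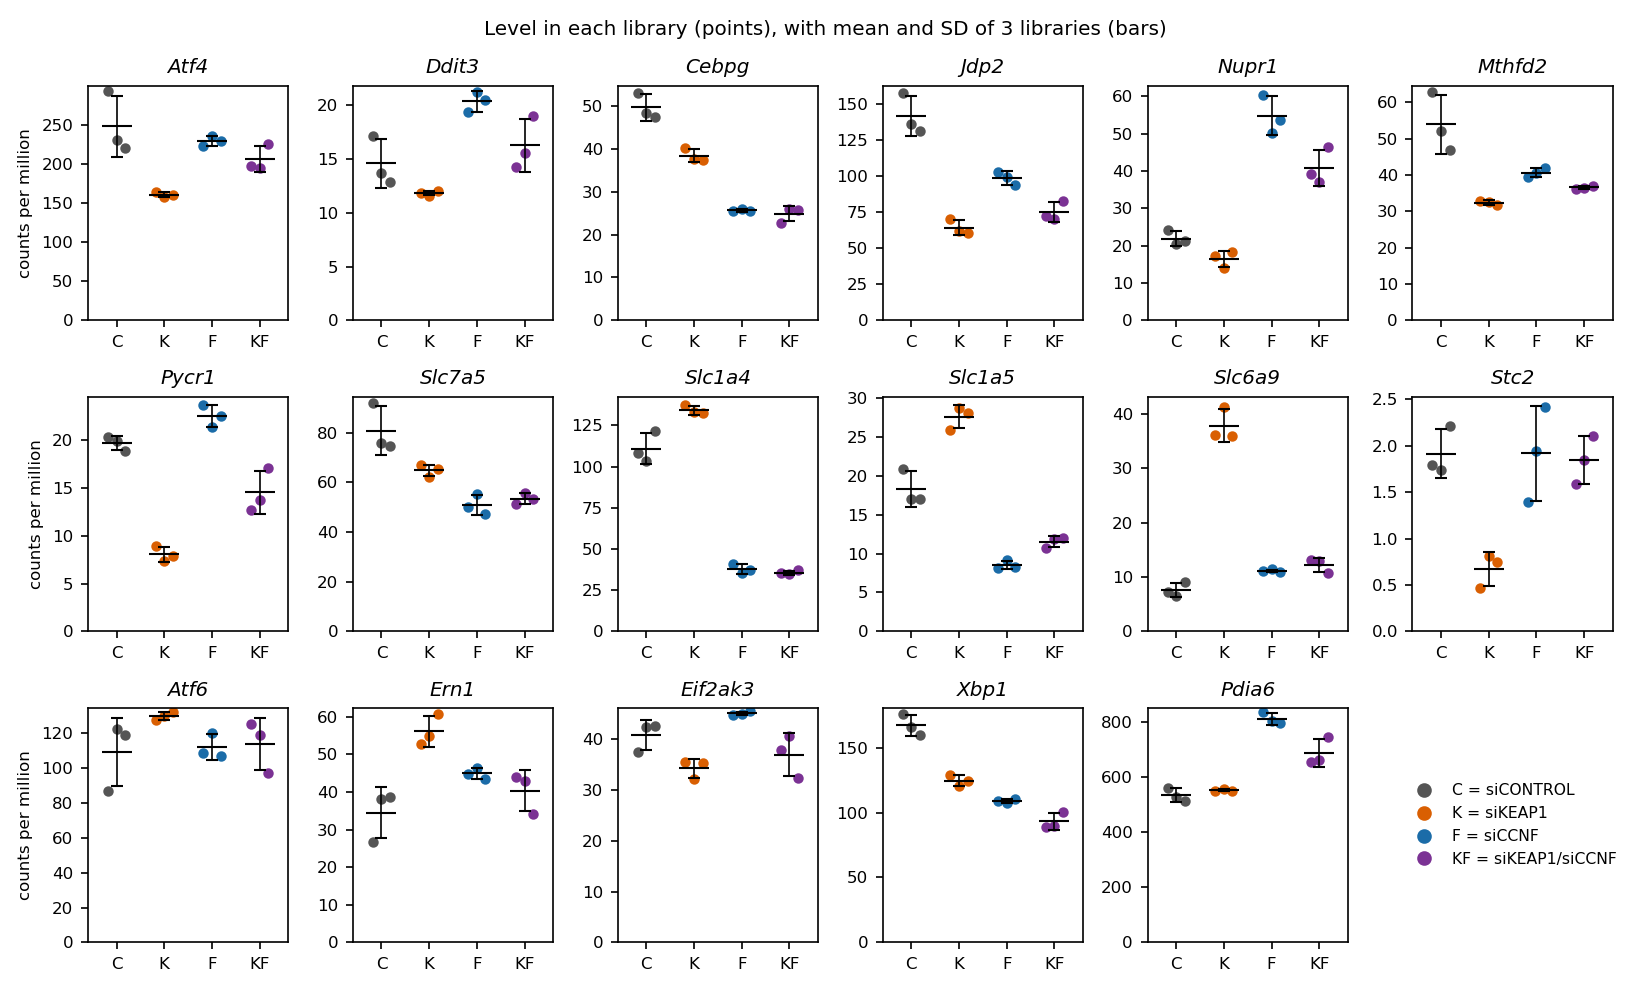
Level of 17 members in each library, in CPM scaled by TMM (vertical axis of each panel, from 0), for siCONTROL (C), siKEAP1 (K), siCCNF (F) and siKEAP1/siCCNF (KF). Points are the 3 libraries in the order of their replicate number, and bars give the mean and SD. Slc6a9 is high only in siKEAP1 among the 4 groups (36.0 to 41.4 CPM against 6.57 to 13.1 in the others), whereas Slc1a4 is low in both groups with siCCNF (34.5 to 41.0 against 103 to 137).

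Of the 3 sensor genes, Ern1 (IRE1, chr11:106394650-106487852, minus strand) was the only one called after siCCNF, and Atf6 was called in no comparison. Ern1 was at 26.6, 38.03 and 38.7 CPM in siCONTROL, 52.7, 54.9 and 60.6 in siKEAP1, 44.9, 46.4 and 43.5 in siCCNF, and 43.9, 42.97 and 34.1 in siKEAP1/siCCNF. The siKEAP1 libraries were above all siCONTROL libraries, siCCNF also lay above them, and siKEAP1/siCCNF overlapped siCONTROL. Ern1 rose by 1.63-fold after siKEAP1 (log2 fold change 0.71, SE 0.13, adjusted p = 0.000816, edgeR) and by 1.31-fold after siCCNF (log2 fold change 0.38, SE 0.13, adjusted p = 0.028, edgeR), the second of which was lost without siCONTROL replicate 1 (0.23) or siCCNF replicate 1 (0.39), 2 (0.37) or 3 (0.41). After both siRNAs the value was log2 fold change 0.23, SE 0.13, adjusted p = 0.177 (edgeR).

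Eif2ak3 (PERK, chr6:70844515-70905245, plus strand) was at 37.4, 42.4 and 42.6 CPM in siCONTROL, 35.5, 32.2 and 35.3 in siKEAP1, 44.9, 45.1 and 45.5 in siCCNF, and 37.9, 40.7 and 32.4 in siKEAP1/siCCNF. The siKEAP1 libraries lay below siCONTROL and the siCCNF libraries above it, both by a small margin. Only siKEAP1 was called (log2 fold change -0.25, SE 0.09, adjusted p = 0.0373, edgeR), and this was lost without siCONTROL replicate 2 (-0.23) or 3 (-0.22) or without siKEAP1 replicate 1 (-0.28), 2 (-0.21) or 3 (-0.27). Atf6 (chr1:170704674-170867771, minus strand) was at 86.9, 122 and 119 CPM in siCONTROL, 128, 130 and 132 in siKEAP1, 109, 120 and 107 in siCCNF, and 125, 119 and 97.01 in siKEAP1/siCCNF. The siCONTROL libraries covered a wide range, with replicate 1 the lowest, and only siKEAP1 lay wholly above it. The log2 fold changes were 0.25 after siKEAP1, 0.04 after siCCNF and 0.06 after both, with adjusted p of 0.118, 0.826 and 0.714 (edgeR).

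Xbp1, the transcription factor downstream of Ern1 (chr11:5520659-5525893, plus strand), fell in every depleted group. It read 176, 166 and 160 CPM in siCONTROL, 129, 120 and 125 in siKEAP1, 109, 107 and 110 in siCCNF, and 89.1, 89.9 and 101 in siKEAP1/siCCNF. None of the 4 groups overlapped, in the order siCONTROL, siKEAP1, siCCNF and siKEAP1/siCCNF. Xbp1 fell by 1.34-fold after siKEAP1 (log2 fold change -0.43, SE 0.06, adjusted p = 0.000142, edgeR), 1.54-fold after siCCNF (log2 fold change -0.62, SE 0.06, adjusted p = 4.64e-06, edgeR) and 1.80-fold after both (log2 fold change -0.84, SE 0.06, adjusted p = 4.16e-07, edgeR). These counts join the spliced and unspliced forms, so splicing by IRE1 was not measured.

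The 7 genes of ER folding and degradation were lower in 4 cases and higher in none after siKEAP1, against 20.2% and 20.4% of all genes. After siCCNF, 3 were lower and 3 higher, against 25.5% and 22.5%. After both, 3 were lower and 2 higher, against 23.6% and 20.6%. Pdia6, a disulfide isomerase of the ER (chr12:17266545-17284770, plus strand) with the ER stress element shown above, was at 560, 528 and 512 CPM in siCONTROL, 549, 558 and 551 in siKEAP1, 834, 802 and 794 in siCCNF, and 654, 661 and 746 in siKEAP1/siCCNF. The groups with siCCNF lay above both groups without it and did not overlap each other. It rose by 1.52-fold after siCCNF (log2 fold change 0.60, SE 0.06, adjusted p = 5.97e-06, edgeR) and 1.29-fold after both (log2 fold change 0.36, SE 0.06, adjusted p = 0.000452, edgeR), and siKEAP1 alone gave log2 fold change 0.05, SE 0.06, adjusted p = 0.574 (edgeR). Its family member Pdia4 went from 206 ± 10.7 CPM in siCONTROL (SD, n = 3) to 177 ± 1.10 in siKEAP1, 300 ± 5.01 in siCCNF and 267 ± 7.56 in siKEAP1/siCCNF and rose in the same groups (0.54 and 0.38), with a small decrease after siKEAP1 (-0.22).

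Other folding genes fell after siCCNF. Calr, which also carries the ER stress element, went from 1761 ± 95.9 CPM in siCONTROL (SD, n = 3) to 1413 ± 35.7 in siKEAP1, 1485 ± 57.7 in siCCNF and 1350 ± 122 in siKEAP1/siCCNF and was lower in each group (-0.32, -0.25 and -0.38), and Manf, a secreted ER stress protein, showed -0.30, -0.28 and -0.37. The siCCNF calls of both were lost without siCCNF replicate 3 (-0.22 for Calr and -0.24 for Manf), and Manf overlaps Rbm15b and Dcaf1. Herpud1, a membrane protein of ER-associated degradation with the second ER stress element, went from 109 ± 1.16 CPM in siCONTROL (SD, n = 3) to 104 ± 1.13 in siKEAP1, 77.4 ± 5.80 in siCCNF and 70.5 ± 4.44 in siKEAP1/siCCNF and fell after siCCNF (-0.49) and after both (-0.63). Creld2, the third gene with the ER stress element, was lower after siKEAP1 (-0.26) and higher after siCCNF (0.19), and 9 of the 12 libraries ended the second call when left out alone (0.18 to 0.21), which were all but siCONTROL replicate 1 and 2 siKEAP1/siCCNF libraries. Sdf2l1, a component of the ER chaperone complex, was called in none, though without siCONTROL replicate 1 it was called higher after siCCNF (0.33), as it was without siKEAP1/siCCNF replicate 3 (0.24).

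A further list held 48 known ATF4 and ER stress genes, of which 47 were tested. After siKEAP1, 14 were lower and 8 higher (29.8% and 17.0%, against 20.2% and 20.4% of all genes). After siCCNF, 13 were lower and 16 higher (27.7% and 34.0%, against 25.5% and 22.5%). After both, 14 were lower and 11 higher (29.8% and 23.4%, against 23.6% and 20.6%). The 3 with the largest changes against siCONTROL were Slc7a11, Gdf15 and Fgf21. Slc7a11, the cystine transporter shared by NRF2 and ATF4, rose by 6.2-fold after siKEAP1 (log2 fold change 2.63, SE 0.16, adjusted p = 4.66e-08, edgeR) and by 1.86-fold after both (log2 fold change 0.90, SE 0.16, adjusted p = 0.000559, edgeR). Gdf15, a secreted stress hormone, rose by 4.86-fold after siKEAP1 (log2 fold change 2.28, SE 0.13, adjusted p = 3.63e-08, edgeR) and gave log2 fold change 0.09, SE 0.14, adjusted p = 0.629 (edgeR) after both. Fgf21, another such hormone, stayed under 1 CPM in every library and fell after siKEAP1 (log2 fold change -1.89, SE 0.54, adjusted p = 0.0127, edgeR). Among the further ER stress genes, 8 were lower and 8 higher of 23 after siCCNF, beside 3 and 3 of the 7 folding and degradation members. These counts are 34.8% and 42.9% in each direction, against 25.5% lower and 22.5% higher of all genes tested.

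**Figure D3:**
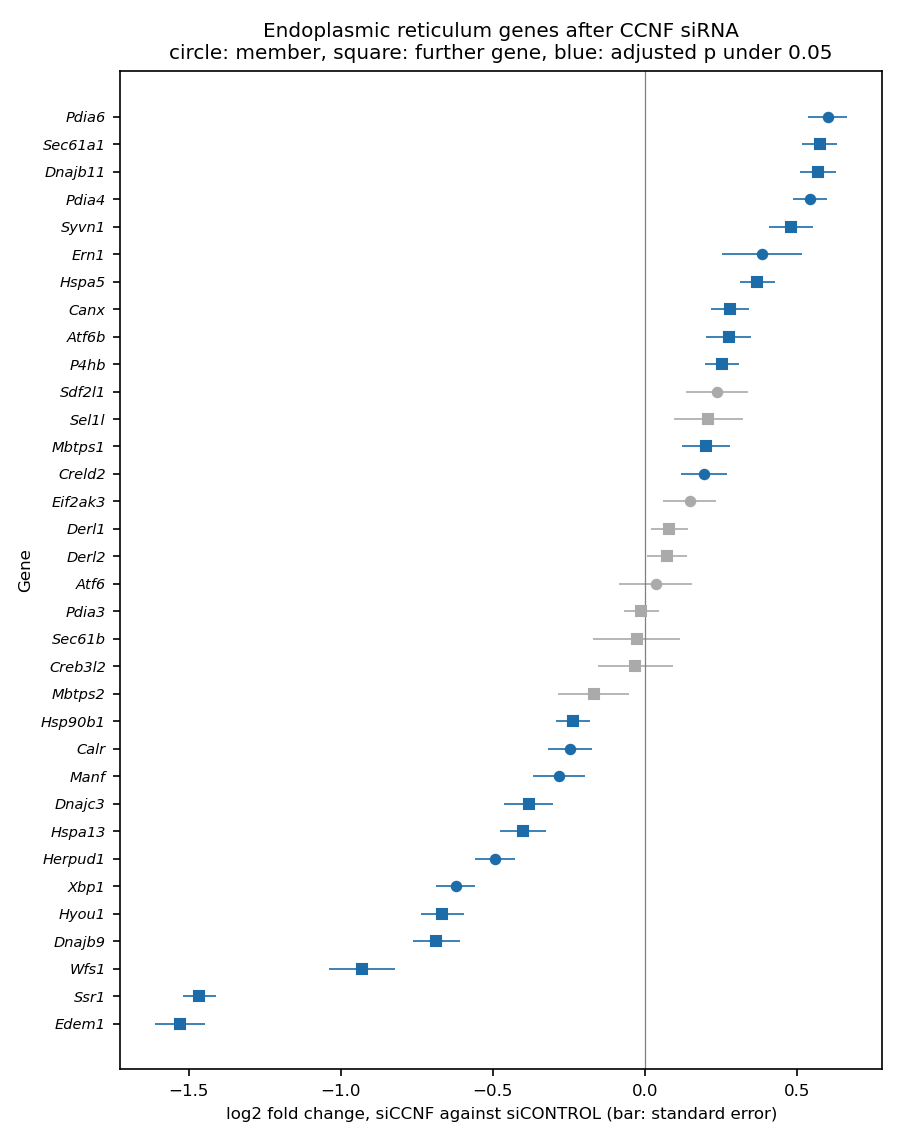
Log2 fold change after siCCNF against siCONTROL (horizontal axis, bars are standard errors) of 34 ER stress genes (vertical axis), namely 11 members (circles) and 23 further genes (squares), ordered by value. Blue marks an adjusted p under 0.05, and the members run from Xbp1 at -0.62 to Pdia6 at 0.60, with called genes on both sides of 0.

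Adding siCCNF to siKEAP1 changed many genes, members among them. Against siKEAP1 alone, siKEAP1/siCCNF had 13 members higher (33.3%) and 12 lower (30.8%, edgeR), where 24.1% of all genes tested were higher and 26.9% lower. More than 2-fold, 2 were higher (Nupr1 and Stc2) and 3 lower (Slc1a4, Slc1a5 and Slc6a9), against 5.32% and 9.17% of all genes. Slc1a4 was 3.76-fold lower (log2 fold change -1.91, SE 0.08, adjusted p = 1.79e-09, edgeR), Slc6a9 3.09-fold lower (log2 fold change -1.63, SE 0.12, adjusted p = 1.45e-07, edgeR) and Slc1a5 2.39-fold lower (log2 fold change -1.26, SE 0.10, adjusted p = 4.01e-07, edgeR). Stc2 was 2.71-fold higher (log2 fold change 1.44, SE 0.29, adjusted p = 0.00102, edgeR), Nupr1 2.48-fold higher (log2 fold change 1.31, SE 0.12, adjusted p = 1.30e-06, edgeR) and Pycr1 1.80-fold higher (log2 fold change 0.85, SE 0.12, adjusted p = 5.32e-05, edgeR). Atf4 was 1.28-fold higher (log2 fold change 0.36, SE 0.10, adjusted p = 0.00696, edgeR). Of the 25 calls, 5 were lost without 1 library, namely Slc7a5 (-0.26 and -0.25 without replicate 1 of either group), Phgdh (0.21 to 0.30 without any siKEAP1 replicate or siKEAP1/siCCNF replicate 3), Creld2 (0.15 to 0.22 without replicate 2 or 3 of either group), Slc7a1 (0.31 to 0.34 without siKEAP1 replicate 1 or siKEAP1/siCCNF replicate 1 or 2) and Vldlr (0.50 to 0.73 without replicate 1 or 2 of either group).

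Adding siKEAP1 to siCCNF gave fewer calls when all libraries were used, among all genes as among the members. Against siCCNF alone, siKEAP1/siCCNF had 1 member higher (Slc1a5, 2.56% of the members) and 5 lower (Jdp2, Nupr1, Pycr1, Slc7a1 and Pdia6, 12.8%). Of all genes tested, 3.00% were higher and 2.19% lower. No member passed 2-fold in either direction, as 0.496% and 0.231% of all genes did. Pycr1 was 1.55-fold lower (log2 fold change -0.64, SE 0.11, adjusted p = 0.0049, edgeR), the one call that no single library ended. The others were lost without certain libraries: Slc1a5 (0.44, and 0.40 to 0.41 without siCCNF replicate 1 or 3 or siKEAP1/siCCNF replicate 2 or 3), Jdp2 (-0.39, and -0.40 to -0.36 without replicate 1 or 2 of either group), Nupr1 (-0.43, and -0.49 to -0.35 without any of 9 libraries, all but siCONTROL replicate 1, siKEAP1 replicate 2 and siKEAP1/siCCNF replicate 3), Slc7a1 (-0.44, and -0.52 to -0.31 without any of 10, all but siCONTROL replicate 1 and siKEAP1/siCCNF replicate 1) and Pdia6 (-0.24, and -0.26 to -0.20 without any of 10, all but the 2 that stood apart). With the 2 libraries that stood apart left out, 3 members were higher and 17 lower in this comparison, where 7.31% of all genes tested were higher and 6.75% lower.

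The difference between these effects was tested as an interaction: the log2 fold change between siKEAP1/siCCNF and siCCNF, less that between siKEAP1 and siCONTROL. It was above 0 for 7 members and below 0 for 4 (edgeR), where 10.6% and 10.5% of all genes tested were. Slc6a9 had the largest value (log2 fold change -2.16, SE 0.17, adjusted p = 5.20e-06, edgeR), since siKEAP1 raised it 4.94-fold in control cells but gave a log2 fold change of 0.14 in CCNF-depleted cells. Ern1 was also below 0 (log2 fold change -0.86, SE 0.19, adjusted p = 0.00515, edgeR). Stc2 (log2 fold change 1.43, SE 0.39, adjusted p = 0.0182, edgeR), Jdp2 (log2 fold change 0.75, SE 0.13, adjusted p = 0.00104, edgeR), Pycr1 (log2 fold change 0.65, SE 0.16, adjusted p = 0.0111, edgeR) and Mthfd2 (log2 fold change 0.59, SE 0.13, adjusted p = 0.00545, edgeR) were above 0, each with a called decrease after siKEAP1 alone. When siKEAP1 was added to siCCNF, Pycr1 (-0.64) and Jdp2 (-0.39) had smaller called decreases, and Mthfd2 (-0.15) and Stc2 (-0.06) were not called. The 6 interaction calls named here remained without any 1 library.

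The other interaction calls, with adjusted p from 0.0248 to 0.0399 (edgeR), each ended when certain single libraries were left out. Their values stayed on the same side of 0 without any 1 library. Atf4 (log2 fold change 0.47, SE 0.13, adjusted p = 0.0248, edgeR) was lost without siKEAP1 replicate 2 or 3 or siCCNF replicate 1 or 3 (0.45 to 0.47). Cebpg (0.33), Slc7a5 (0.39), Slc1a4 (-0.36) and Pdia6 (-0.29) were each lost without any of 8 to 10 of the 12 libraries, with values of 0.28 to 0.35, 0.29 to 0.41, -0.38 to -0.29 and -0.30 to -0.25. The exceptions were siCONTROL replicate 3, siKEAP1 replicate 1 and siKEAP1/siCCNF replicate 1 for Cebpg, siCONTROL replicates 2 and 3, siCCNF replicate 2 and siKEAP1/siCCNF replicate 1 for Slc7a5, siCONTROL replicates 1 and 3, siCCNF replicate 2 and siKEAP1/siCCNF replicate 3 for Slc1a4, and the 2 libraries that stood apart for Pdia6. Of the 11 genes, 10 were called after siKEAP1, and in all 10 the interaction had the opposite sign, a count that carries no weight of its own because the interaction contains the siKEAP1 effect with its sign turned. Beside these values, Keap1 itself was less depleted in siKEAP1/siCCNF than in siKEAP1 (log2 fold change 0.93, SE 0.08, adjusted p = 1.07e-06, edgeR), and the part of this in the interaction was not tested.

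**Figure D4:**
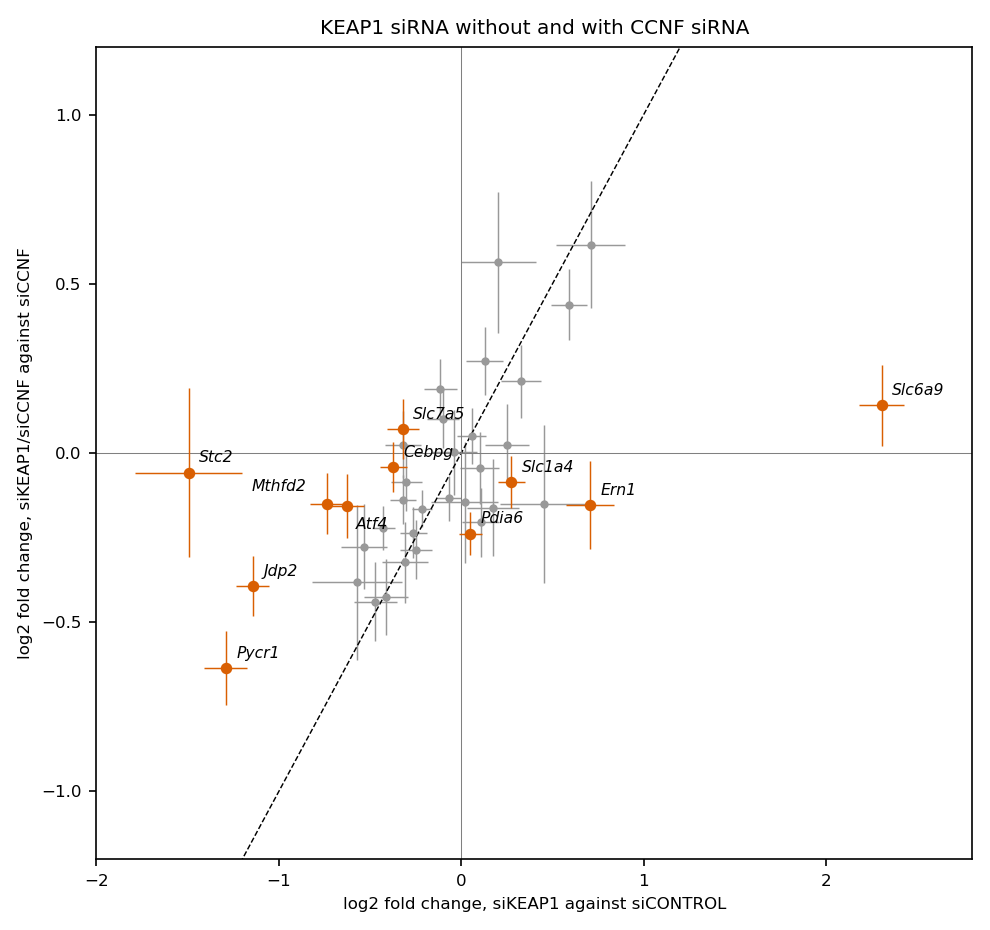
Log2 fold change of the 39 members for siKEAP1 against siCONTROL (horizontal axis) and for siKEAP1/siCCNF against siCCNF (vertical axis), with standard errors as bars and equal effects on the dashed line. The 2 axes share no library but have different scales. Orange, labelled points are the 11 members called in the interaction, and Slc6a9, at 2.30 and 0.14, lies farthest from the line.

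The 8 members with the CARE letters in their promoter went different ways. After siCCNF the log2 fold changes were -1.55 for Slc1a4, -0.52 for Jdp2 and -0.49 for Herpud1, all called lower, and 1.32 for Nupr1, called higher. Asns (0.31), Pycr1 (0.19), Trib3 (0.15) and Vldlr (0.48) were not called. After siKEAP1, Pycr1 (-1.29), Jdp2 (-1.14) and Nupr1 (-0.41) were called lower and Slc1a4 (0.27) higher. The 3 members with the ER stress element were likewise split after siCCNF, with Pdia6 (0.60) and Creld2 (0.19) higher and Calr (-0.25) lower, and as stated above the calls of Nupr1 and Slc1a4 after siKEAP1 and of Creld2 and Calr after siCCNF were lost without 1 library.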

How the data were processed

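The authors deposited one table of 54532 genes with, for each of 12 libraries, unnormalized gene counts and FPKM values. The submitters' processing notes name HISAT2 and GRCm39, but the deposited coordinates of all 39 members and of 53462 of 54409 genes are those of GRCm38 (GENCODE M21). The counting tool and its use of strand are not given in the sources used here. The table also holds the authors' own fold changes, p-values and adjusted p-values of each depletion against siCONTROL, which were not used.

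All tests used edgeR 4.0.16 (R 4.3.3) on these counts, after filterByExpr had kept 15122 genes and TMM had scaled the libraries. The quasi-likelihood fit had 1 mean for each of the 4 groups and took in every library. Two-sided p-values were adjusted after Benjamini and Hochberg across the 15122 genes, in each comparison separately. A gene was called at an adjusted p under 0.05. Levels in CPM are scaled by TMM. A second Ddit3 entry with 0 counts was left out.

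The members and lists, and the tests, were chosen with earlier results of these data known. Values in every library were given for Atf4, Ddit3, Xbp1, Atf6, Ern1 and Eif2ak3, for members called and over 2-fold in a pairwise comparison, and for members called in the interaction, 17 genes in all. The 3 further genes with the largest called change against siCONTROL were named, with Keap1 and Ccnf. Alternatives were DESeq2 1.42.0, limma 3.58.1 on log2(FPKM + 1), total library sizes, no filter, at least 10 counts in every library, a replicate block, the compared groups only, removal of a gene length trend (splines, 5 degrees of freedom) and leaving out single libraries or the 2 that stood apart. The code was tested on simulated data.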

Additional observations from a re-analysis of the deposited data

Results flagged for a closer look

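For 11 members siKEAP1 had another effect beside siCCNF than in control cells by the interaction test of edgeR (adjusted p under 0.05 over 15122 genes), and each is listed here for that reason. The difference was -2.16 for Slc6a9, -0.86 for Ern1, -0.36 for Slc1a4 and -0.29 for Pdia6 on the log2 scale. It was 1.43 for Stc2, 0.75 for Jdp2, 0.65 for Pycr1, 0.59 for Mthfd2, 0.47 for Atf4, 0.39 for Slc7a5 and 0.33 for Cebpg. Slc6a9, Ern1, Stc2, Jdp2, Pycr1 and Mthfd2 were called without any 1 of the 12 libraries, and the other 5 were not. Slc38a2 missed the threshold (0.34, adjusted p = 0.106, edgeR). It was called without siCONTROL replicate 1 (0.46), without siKEAP1/siCCNF replicate 3 (0.42) and without both (0.54). Without both, Trib3 (-0.98), Ddit4 (-0.64), Cebpb (-0.53), Sdf2l1 (-0.50) and Eif4ebp1 (-0.36) were called too. Keap1 had a log2 fold change of -2.80 after siKEAP1 and of -1.82 when siKEAP1 was added to siCCNF, and its part in these differences was not tested.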

How the results depend on the processing

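No value of a member changed direction where it or the alternative was called. Counts of members called after siCCNF, in siKEAP1/siCCNF against siCONTROL and in siKEAP1/siCCNF against siKEAP1 stayed within 1.5 times under every alternative run, and so did the decreases after siKEAP1. The rises after siKEAP1 (6) became 10 with the 2 libraries that stood apart left out, and the interaction counts below 0 (4) became 9. Without a filter on low counts, the latter was 2. The comparison of siKEAP1/siCCNF with siCCNF moved most. Its 1 rise became 2 with DESeq2, 2 without the filter, 2 with the length trend removed, 0 with the replicate block, 0 with limma, 0 with the compared groups only and 3 without the 2 libraries. Its 5 decreases became 8 with DESeq2, 2 with total library sizes, 3 with the replicate block, 2 with limma, 2 with the compared groups only, 10 with the length trend removed and 17 without the 2 libraries. Without 1 library at a time, these rises ranged from 0 to 3 and these decreases from 1 to 10, and the interaction counts ranged from 4 to 7 above 0 and from 2 to 7 below 0. The cause of these shifts was not tested.

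Of 113 calls, the replicate block ended 9 and added 1. Deviations of same-numbered libraries had low correlations (median r 0.041, from -0.268 to 0.204 over 18 pairs, 4 of them over 0.1). The lowest values, -0.268 and -0.222, each involved a library that stood apart. Of 12 libraries, 6 correlated best with their own number. These values do not settle whether the libraries were paired, and the numbers were not used to pair samples. Low counts limit Stc2, Trib3, Cth and Fgf21.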

Other observations

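Several further ER and ATF4 genes, chosen here after their values were seen, also moved. Edem1, which hands misfolded glycoproteins to degradation, fell by 2.89-fold after siCCNF and by 2.93-fold after both siRNAs, from 117 ± 6.93 CPM in siCONTROL (SD, n = 3) to 40.5 ± 3.31 and 39.8 ± 3.49. Ssr1, a subunit of the translocon-associated complex, fell by 2.76-fold after siCCNF and by 1.35-fold after siKEAP1. In contrast, Hspa5, the main ER chaperone BiP, rose after siCCNF (log2 fold change 0.37), as did Sec61a1 (0.58), Dnajb11 (0.57) and Syvn1 (0.48), while Hyou1 (-0.67) and Dnajb9 (-0.69) fell. All of these passed the edgeR test. Sesn2, an inhibitor of mTORC1 signalling, rose by log2 1.01 after siKEAP1, 1.62 after siCCNF and 1.68 after both, and its interaction of -0.96 also passed the test. P4hb, a disulfide isomerase, fell after siKEAP1 (-0.83) and rose after siCCNF (0.25).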
